A study of Solanum lycopersicum with 12 samples.

Results

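The genes described here were those with a higher transcript level in every leaf library of drought-treated (D) tomato plants than in any other library of the study. A gene was taken when its lowest CPM (the count of the gene scaled to the total count of its library) in D exceeded its highest CPM in the 9 other libraries and its mean in D was at least 1 CPM. Of the 34075 genes of the table, 536 had all 3 D libraries above the other 9 and 484 of them reached the minimum level. These were ranked by the log2 ratio of the mean in D over the mean of the other 9 libraries, with 0.1 CPM added to both, and the 150 genes with the largest ratio were taken. The genes were therefore selected on the D values themselves, and every value in D is given as a description, without a test. By the same rule before ranking, 42 genes stood highest in all US + D libraries, 70 in all US libraries and 127 in all C libraries.

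Plants that lose water build up abscisic acid (ABA), the hormone that closes stomata and turns on protective genes. Many of these genes are the ones that also act when a seed dries, e.g., late embryogenesis abundant (LEA) proteins that shield other proteins and membranes, storage proteins, oleosins of lipid bodies and enzymes that make soluble sugars and inositol. In leaves such genes are usually low and are known to respond to drought, salt and ABA.

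Poly-A RNA was sequenced from leaves of the dwarf tomato cultivar Micro Tom, 48 h after the stimuli, with 3 biological replicates in each of 4 groups. D plants each received 10 ml of a 20% solution of polyethylene glycol 6000, an osmolyte that holds water back from the roots. US + D plants were first exposed to ultrasound (30 kHz and 120 W for 5 min through air, at an average distance of 6 cm from the head) and then given the same solution at once, US plants were exposed to ultrasound alone, and C plants were untreated. Drought was thus an osmotic stimulus given once, and the sources used here do not say whether a library came from 1 plant or from several. Total counts were between 37905900 and 41748213 in D, between 33640280 and 87164190 in US + D, between 36766633 and 42940503 in US, and between 44837873 and 106829565 in C. In the bulk RNA of a leaf, fewer cells of a type and less RNA per cell cannot be told apart. The leaf label could not be checked, since the lists of mesophyll, trichome, root, pollen and dividing cell markers matched no annotated gene.

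Names were known for 99 of the 150 genes, 12 of which are named only as unknown, hypothetical or expressed proteins, and 51 had no name in the sources used here. These names come from lists of genes that the study had called in at least 1 of its comparisons, so counts of named genes per pathway are not counts over whole pathways. Of the 1286 genes annotated in the whole table, 7.70% were among the 150, the share to hold beside each list count below. The genes lie on all 12 chromosomes, with most on chromosome 2 (22 genes, 14.7% of the genes against 10.8% of all tested genes). Their span on the genome (start to end, introns included) had a median of 1598 bases, against 3400 bases for the tested genes.

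The 150 genes were between 2.24 and 15.5 times higher in D than in the mean of the other libraries, with a median of 3.10. The log2 ratio had a median of 1.61 and ranged between 1.14 and 3.93. A ratio of 8 or more was seen for 11 genes, of 4 or more for 44 genes and of under 3 for 68 genes. The gap to the nearest other library was narrower. The lowest D library was between 1.001 and 4.04 times the highest of the other 9 libraries, with a median of 1.31, and this quotient was under 1.1 for 30 genes and at least 2 for 17 genes. Among tested genes 2.32% had all 3 D libraries above the other 9, the share that the rule itself draws on. The mean level in D was between 1.02 and 4121 CPM, with a median of 8.47 CPM. It was under 5 CPM for 51 genes and at least 100 CPM for 18 genes. In D the lowest count of any of these genes was 19 reads, whereas 11 genes had no count in at least 1 of the other libraries. A count of 0 allows up to 3 counts, i.e., between 0.0281 and 0.0892 CPM depending on the library, which covers counting error only.

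**Figure D1:**
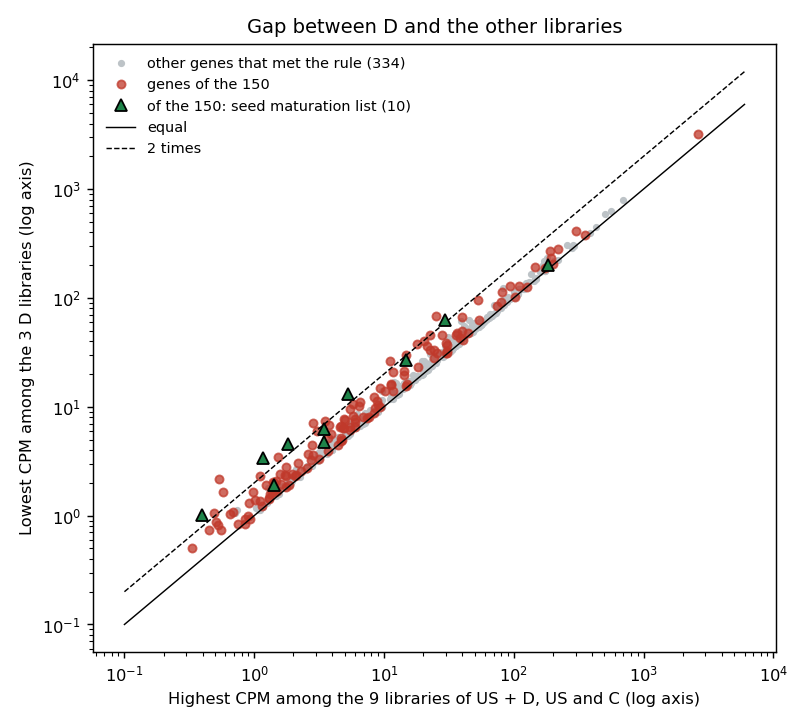
Lowest CPM of the 3 D libraries (vertical, log axis) against the highest CPM of the 9 other libraries (horizontal, log axis) for the 484 genes that met the rule. Circles in red are the genes of the 150, triangles in green the 10 of them on the seed maturation list, and grey points the 334 genes ranked lower; 17 of the 150 genes lie on or above the dashed line of 2 times.

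All the ratios are of CPM without further scaling. On that scale the median tested gene was itself lower in D than the mean of C, by a log2 difference of -0.09, -0.28 and -0.13 in replicates 1, 2 and 3, so the D values of the 150 genes stood above a slightly lowered background.

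The D libraries differed among themselves. The 150 genes together had 10857, 12181 and 8396 CPM in D, against 4197, 2867 and 5137 CPM in US + D, 6082, 3131 and 3205 CPM in US, and 3770, 3076 and 4226 CPM in C. They thus took between 0.840% and 1.22% of the counts of a D library and between 0.287% and 0.608% of the others. D replicate 3 was the lowest D library for 95 genes and the highest for 12, whereas among all tested genes it was the lowest for 23.3%. The ratio of the highest to the lowest D library had a median of 1.63 and reached 4.21. With the genes held fixed, the median log2 ratio was between 1.53 and 1.65 when any D library was left out. The genes were chosen on these same D values, so this range does not show how stable the choice was.

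**Figure D2:**
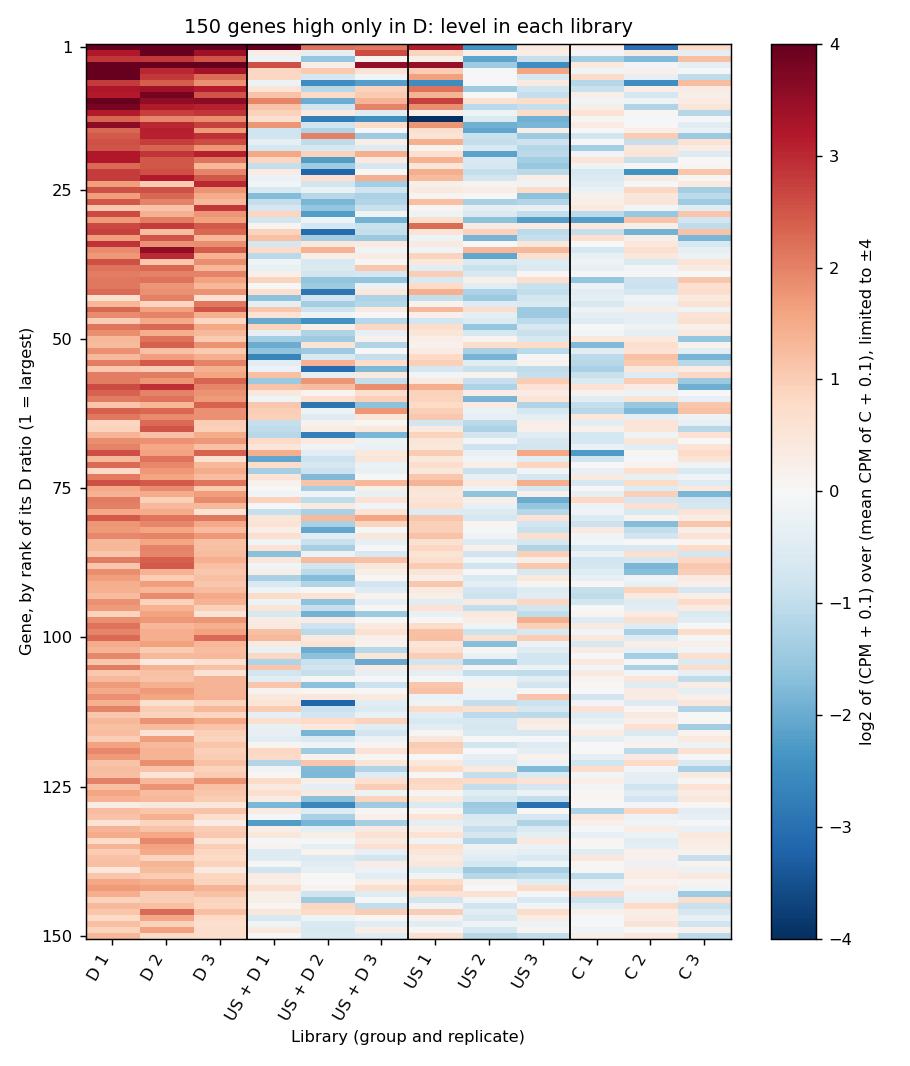
Level of the 150 genes (rows, ordered by rank) in the 12 libraries (columns), as log2 of CPM over the mean of C with 0.1 CPM added to both, in colours limited to 4 either way. Red fills the 3 D columns, and among the other 9 columns US replicate 1 is the reddest and US + D replicate 2 and US replicates 2 and 3 are the bluest.

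Genes of seed maturation and desiccation were the list with the most genes in the first 12 ranks. Of the 18 annotated genes on this list 10 were among the 150, against 7.70% of all annotated genes (99 of 1286), and 5 of them, an aquaporin of the seed vacuole and 4 LEA proteins, stood in ranks 3 to 11. The log2 ratio of the 10 genes had a median of 2.63, against 1.61 over all the 150 genes. LEA proteins are small, mostly unfolded proteins that accumulate late in seed development. The LEA gene Solyc02g077970.4.1 had 16.5, 16.4 and 13.2 CPM in D, against 1.903, 0.6898 and 2.398 CPM in US + D, 2.58, 0.434 and 1.12 CPM in US, and 0.781, 0.5804 and 5.24 CPM in C. The D libraries were alike, and the highest level outside D was in C replicate 3. A further LEA gene, Solyc02g085150.4.1, had 7.697, 3.38 and 4.24 CPM in D, against 0.654, 0.792 and 0.539 CPM in US + D, 0.769, 0.314 and 1.17 CPM in US, and 0.2899, 0.393 and 0.303 CPM in C. Its D libraries did not come near the others, with the lowest at 2.89 times the highest of the 9. LEA D-29 (Solyc12g098900.2.1) had 103, 66.3 and 62.5 CPM in D, against 16.3, 4.24 and 29.4 CPM in US + D, 26.8, 3.43 and 3.81 CPM in US, and 8.56, 3.15 and 10.2 CPM in C. Here US + D replicate 3 and US replicate 1 were the highest outside D, and the log2 ratio was 2.71. LEA D-34 (Solyc09g082100.3.1) was scarce and had 1.66, 2.64 and 1.01 CPM in D, against 0.327, 0.2299 and 0.298 CPM in US + D, 0.396, 0.0965 and 0 CPM in US, and 0.134, 0.0187 and 0.131 CPM in C. In US replicate 3 it had no count, and all US + D libraries were above all C libraries. The fifth LEA gene, Solyc07g053360.4.1, had 8.72, 9.34 and 6.25 CPM in D, against 3.45, 2.02 and 2.27 CPM in US + D, 2.65, 1.74 and 0.762 CPM in US, and 1.72, 1.76 and 3.37 CPM in C, with a log2 ratio of 1.84.

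The aquaporin was tonoplast intrinsic protein 3.2 (TIP3.2, Solyc03g019820.3.1), one of the target genes of the study. Tonoplast intrinsic proteins are water channels of the vacuole, and the TIP3 type is known from the storage vacuoles of Arabidopsis seeds. TIP3.2 had 48.1, 26.7 and 41.9 CPM in D, against 7.76, 1.43 and 14.9 CPM in US + D, 14.6, 0.386 and 0.136 CPM in US, and 1.63, 1.105 and 0.899 CPM in C. The 3 libraries with more than 7 CPM outside D were US + D replicates 1 and 3 and US replicate 1, while all C libraries were between 0.899 and 1.63 CPM. The mean was 38.9 ± 10.998 CPM for D, 8.03 ± 6.74 CPM for US + D, 5.03 ± 8.25 CPM for US and 1.21 ± 0.376 CPM for C (SD, n = 3 each). In US the SD exceeded the mean.

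The remaining members of the list are named after seed storage proteins, a LEA-type seed protein and a lipid body protein. The vicilin-like seed storage protein Solyc02g085590.4.1 had 5.96, 4.59 and 5.51 CPM in D, against 1.81, 1.15 and 1.68 CPM in US + D, 0.932, 0.0483 and 0.218 CPM in US, and 0.491, 0.814 and 0.354 CPM in C. It was higher in the US + D libraries than in all the US and C libraries. Solyc08g078870.3.1, of a family that holds lipid transfer proteins and 2S albumins, small cysteine-rich storage proteins, had 315, 385 and 200.3 CPM in D, against 113, 120.2 and 185 CPM in US + D, 139.8, 21.6 and 76.5 CPM in US, and 76.5, 63.9 and 13.1 CPM in C. Its order was D, US + D, US and C by the mean, and D replicate 3 exceeded US + D replicate 3 only 1.08 times. Seed biotin-containing protein SBP65 (Solyc10g008040.4.1), a LEA-type protein known from pea seeds, had 8.36, 5.25 and 4.79 CPM in D, against 0.684, 0.766 and 2.27 CPM in US + D, 2.89, 0.869 and 1.03 CPM in US, and 1.695, 3.47 and 1.69 CPM in C. The oleosin Solyc03g112440.1.1, a coat protein of lipid bodies, was low in all groups and had 1.92, 2.69 and 2.25 CPM in D, against 1.16, 1.303 and 1.41 CPM in US + D, 0.419, 0.4103 and 0.925 CPM in US, and 0.558, 0.814 and 0.727 CPM in C. The summed level of the 10 genes was 517, 522 and 342 CPM in D, against 147, 133 and 240 CPM in US + D, 192, 29.3 and 85.7 CPM in US, and 92.4, 76.0 and 36.1 CPM in C. On this sum the US + D libraries lay between D and C, but Solyc08g078870.3.1 gave most of it in US + D. Without that gene the other 9 summed to 202, 137 and 142 CPM in D, against 34.0, 12.6 and 55.1 CPM in US + D, 52.0, 7.72 and 9.17 CPM in US, and 15.9, 12.1 and 22.9 CPM in C, and US + D and C overlapped.

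A regulator of seed dormancy first described in Arabidopsis, Delay of germination 1, was also among the 150. This gene, Solyc02g072550.1.1, had 9.65, 6.07 and 8.503 CPM in D, against 4.37, 1.12 and 2.86 CPM in US + D, 3.98, 2.08 and 2.72 CPM in US, and 3.77, 3.13 and 5.44 CPM in C. The D libraries were above the others by a narrow margin, with C replicate 3 the nearest. The gene lies at chromosome 2, 39745992 to 39746222 of the SL4.0 genome, and its unnamed neighbour was also among the 150.

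**Figure D3:**
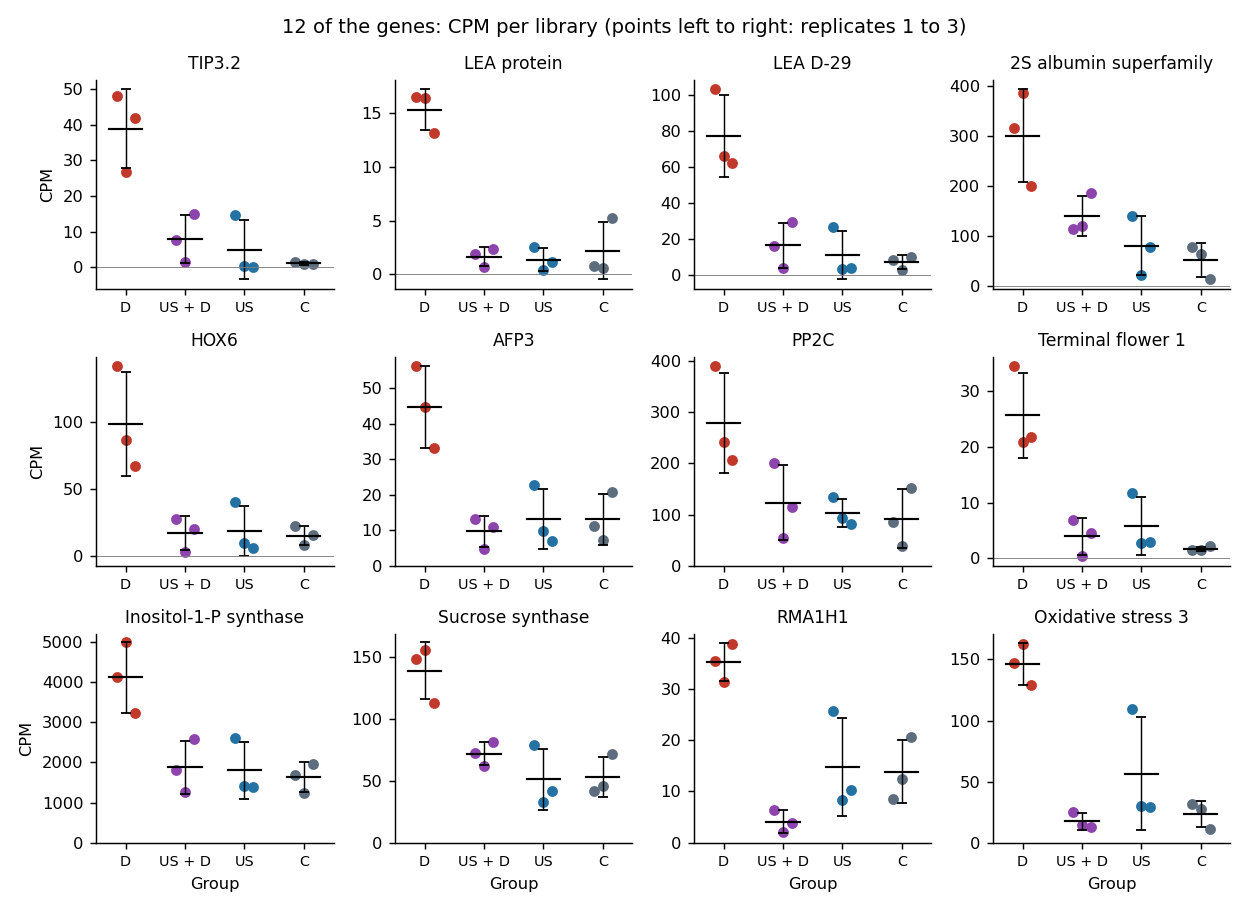
CPM of 12 of the genes in each library, by group from D on the left to C on the right, with the mean (bar) and SD (whiskers, n = 3 each). D points lie above all others in every panel, US replicate 1 (left point of US) is the highest US point in each, and RMA1H1 shows US + D below US and C.

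ABA signalling was represented by 2 of 12 annotated genes. AFP3 (Solyc04g005380.3.1) belongs to the Ninja family, whose Arabidopsis members bind the ABA-responsive factor ABI5 and damp the ABA response. It had 56.2, 44.8 and 33.1 CPM in D, against 13.3, 4.75 and 10.98 CPM in US + D, 22.7, 9.68 and 6.99 CPM in US, and 11.1, 7.08 and 20.8 CPM in C. A protein phosphatase 2C (Solyc03g007230.4.1), of the enzyme family that includes the coreceptors of ABA, had 391, 242 and 207 CPM in D, against 200.1, 54.5 and 115 CPM in US + D, 134, 94.01 and 80.5 CPM in US, and 85.6, 37.6 and 153 CPM in C. The lowest D library of this gene was only 1.03 times US + D replicate 1.

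Transcription factors were 11 of the 150 genes, of 71 annotated, with a median log2 ratio of 1.82. The factor with the highest ratio was R2R3MYB transcription factor 68 (Solyc12g005640.2.1), with 11.1, 19.6 and 7.38 CPM in D, against 1.22, 0.894 and 2.19 CPM in US + D, 3.54, 0.434 and 2.56 CPM in US, and 2.14, 2.61 and 1.78 CPM in C. An ethylene-responsive factor (Solyc06g066540.1.1) had 11.99, 10.5 and 7.16 CPM in D, against 1.22, 1.28 and 1.39 CPM in US + D, 2.24, 1.28 and 0.8703 CPM in US, and 0.736, 2.82 and 2.53 CPM in C. All its D libraries were above 7 CPM and all its other libraries under 3 CPM. Homeobox-leucine zipper factors were 2 of 6 annotated. Of the other 4, only 1 had a higher mean in D than in the other libraries, and none had all D libraries above all C libraries. HOX6 (Solyc08g083130.4.1) is a homeobox-leucine zipper factor, of a plant class with members that respond to water deficit and ABA. It had 141, 86.1 and 67.4 CPM in D, against 27.6, 3.17 and 20.1 CPM in US + D, 39.96, 9.82 and 5.82 CPM in US, and 22.1, 8.18 and 15.2 CPM in C. US replicate 1 was the highest library outside D. ATHB-21 (Solyc02g085630.3.1), whose Arabidopsis counterpart acts in the dormancy of buds, had 1.85, 1.87 and 1.05 CPM in D, against 0.119, 0.179 and 0.0918 CPM in US + D, 0.326, 0.2896 and 0.462 CPM in US, and 0.178, 0.487 and 0.0303 CPM in C. For bHLH transcription factor 154 (Solyc10g009270.3.1), D replicate 2 stood out among 10.02, 26.2 and 9.82 CPM in D, against 1.99, 3.78 and 2.71 CPM in US + D, 3.26, 2.27 and 3.81 CPM in US, and 5.02, 5.79 and 8.54 CPM in C. The lower ranks held B-box zinc finger protein 32, a subunit of Nuclear transcription factor Y, a heat shock factor, a NAC factor, DIVARICATA and R2R3MYB transcription factor 20, with log2 ratios between 1.25 and 1.82.

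Sugar and inositol metabolism had 6 genes among the 150, of 17 annotated. Their log2 ratios were modest, with a median of 1.23, but they include the most abundant transcript of the group. The myo-inositol-1-phosphate synthase gene Solyc04g054740.3.1 encodes the enzyme of the first step to inositol. It had 4133, 4999 and 3230 CPM in D, against 1800, 1256 and 2578 CPM in US + D, 2611, 1414 and 1378 CPM in US, and 1686, 1230 and 1967 CPM in C. This gene was first of the 150 in CPM and also per length, with 1291 CPM per kb of its span in D. Fructose-bisphosphate aldolase (Solyc07g065900.3.1), an enzyme of glycolysis and the Calvin cycle, had 380.02, 850.2 and 406 CPM in D, against 239, 303 and 354 CPM in US + D, 346, 130.1 and 291 CPM in US, and 204, 213 and 109.7 CPM in C. Its D replicate 2 was more than double the other D libraries, which were close to US + D replicate 3. Sucrose synthase (Solyc09g098590.4.1), which cleaves sucrose, had 148, 156 and 113 CPM in D, against 72.5, 62.3 and 81.3 CPM in US + D, 78.9, 32.97 and 41.5 CPM in US, and 41.97, 45.6 and 71.5 CPM in C. Stachyose synthase (Solyc01g079300.4.1), an enzyme of the raffinose family of sugars, was low and had 5.93, 2.06 and 3.57 CPM in D, against 0.803, 0.562 and 0.952 CPM in US + D, 1.28, 0.579 and 0.598 CPM in US, and 0.781, 0.5897 and 1.39 CPM in C. The US and C libraries overlapped for both genes. A SWEET sugar transporter (Solyc01g099880.4.1) had 13.7, 16.6 and 12.3 CPM in D, against 4.79, 2.91 and 4.302 CPM in US + D, 8.41, 3.67 and 3.48 CPM in US, and 5.04, 5.53 and 5.75 CPM in C. Aldose 1-epimerase (Solyc02g087780.3.1), which interconverts forms of glucose and related sugars, had 52.2, 73.9 and 45.7 CPM in D, against 17.7, 28.6 and 20.6 CPM in US + D, 35.98, 20.9 and 20.2 CPM in US, and 18.5, 29.8 and 29.6 CPM in C. US replicate 1 was the highest US library for all 6 genes.

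By CPM, which is not corrected for length, the next genes after these 2 in D, inositol synthase and the aldolase, were a serine/threonine protein kinase (Solyc05g053210.4.1), a chloroplastic thioredoxin-like 1-1 protein (Solyc12g019740.2.1) and Solyc03g121090.4.1, named only as BnaC02g12160D protein. The kinase had 434, 702 and 411 CPM in D, against 165, 147 and 186 CPM in US + D, 303, 219.7 and 210.1 CPM in US, and 168, 199.9 and 291 CPM in C. The thioredoxin-like gene had 372, 488 and 268 CPM in D, against 128, 51.2 and 150.6 CPM in US + D, 190.2, 119 and 79.2 CPM in US, and 128, 90.3 and 173 CPM in C. Solyc03g121090.4.1 had 361, 279 and 326 CPM in D, against 115, 35.4 and 64.1 CPM in US + D, 221, 144 and 99.2 CPM in US, and 175, 114 and 129 CPM in C. US + D replicates 2 and 3 were below all US and C libraries. This gene overlaps another gene on the genome, as do the multiprotein-bridging factor and COBRA-like genes below. The strand setting of the counting was not given in the sources used here, so their reads cannot be told apart from those of the overlapping genes.

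The list of heat shock proteins and factors had 3 genes among the 150, of 12 annotated. Multiprotein-bridging factor 1c (Solyc01g104740.3.1), a coactivator of the heat response in Arabidopsis, had 19.2, 14.04 and 32.98 CPM in D, against 5.92, 2.94 and 3.43 CPM in US + D, 8.5001, 5.29 and 5.005 CPM in US, and 4.82, 6.38 and 11.7 CPM in C. It was 1 of the 12 genes with the highest D level in replicate 3. The heat shock factor Solyc07g040680.3.1 had 76.9, 54.4 and 42.6 CPM in D, against 26.2, 5.31 and 17.8 CPM in US + D, 38.6, 14.7 and 11.2 CPM in US, and 23.3, 14.6 and 16.6 CPM in C. The DnaJ chaperone gene Solyc04g081530.1.1 had 101, 114 and 91.4 CPM in D, against 39.1, 36.5 and 35.5 CPM in US + D, 79.3, 30.7 and 33.2 CPM in US, and 34.9, 44.01 and 26.7 CPM in C. US replicate 1 was the highest library outside D for both genes.

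Cell wall genes were 3 of 35 annotated, and lipid transfer proteins 3 of 8. At the cell surface, 2 non-specific lipid-transfer proteins, which carry lipids to the cuticle and wall, lie near each other on chromosome 8 (54617831 to 54618199 and 54647486 to 54647839). Solyc08g067510.1.1 had 62.3, 56.6 and 45.9 CPM in D, against 11.7, 23.1 and 25.9 CPM in US + D, 26.4, 13.5 and 28.2 CPM in US, and 6.49, 17.3 and 7.13 CPM in C. Its neighbour Solyc08g067530.1.1 had 22.4, 30.2 and 21.4 CPM in D, against 4.01, 14.4 and 8.87 CPM in US + D, 10.5, 3.98 and 6.12 CPM in US, and 2.45, 11.3 and 2.41 CPM in C. Their annotations are the same and reads could be split between close copies, so the pair is less certain than single genes. The CASP-like gene Solyc11g012590.3.1, of a family of membrane proteins related to those that set up the Casparian strip, had 142, 110.4 and 96.7 CPM in D, against 36.7, 30.04 and 45.3 CPM in US + D, 52.7, 33.7 and 34.95 CPM in US, and 31.05, 24.05 and 27.6 CPM in C. Its 3 D libraries were at least 1.83 times the highest other library. A COBRA-like gene (Solyc02g089130.4.1), of a family that orients cellulose, had 13.2, 11.1 and 10.2 CPM in D, against 6.06, 3.83 and 6.402 CPM in US + D, 5.89, 2.63 and 3.32 CPM in US, and 4.73, 6.24 and 4.09 CPM in C. A xyloglucan endotransglucosylase/hydrolase (Solyc07g006870.4.1), a wall-loosening enzyme, had 29.9, 24.7 and 23.4 CPM in D, against 9.22, 8.86 and 7.94 CPM in US + D, 16.6, 10.02 and 8.704 CPM in US, and 18.1, 14.9 and 6.92 CPM in C.

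Genes of flowering time and the clock were 3 of the 7 annotated, and 1 of the other 4 had a higher mean in D than in the other libraries. Terminal flower 1 (Solyc03g026050.3.1), of a family whose members delay flowering, had 34.5, 20.9 and 21.8 CPM in D, against 6.84, 0.358 and 4.52 CPM in US + D, 11.8, 2.65 and 2.88 CPM in US, and 1.49, 1.46 and 2.14 CPM in C. D and C were far apart here, and US replicate 1 was again the highest library outside D. The self-pruning G-box protein (Solyc02g083520.2.1), a bZIP factor that binds the tomato flowering repressor SELF-PRUNING, had 4.74, 3.75 and 2.37 CPM in D, against 1.58, 0.536 and 0.734 CPM in US + D, 1.54, 1.09 and 1.71 CPM in US, and 0.892, 1.02 and 0.808 CPM in C. APRR5 (Solyc03g115770.3.1), a pseudo-response regulator of the circadian clock, had 19.5, 15.5 and 13.96 CPM in D, against 10.3, 8.38 and 5.59 CPM in US + D, 6.92, 4.56 and 5.44 CPM in US, and 6.76, 4.55 and 8.06 CPM in C. US + D replicate 1 was the highest library outside D. F-box genes, whose products select proteins for breakdown, were 3 of 24 annotated. Of the other 21, only 6 had a higher mean in D than in the other libraries. Those among the 150 were EID1-like F-box protein 3 (Solyc09g064820.1.1), a DUF295 gene (Solyc01g106510.2.1) and a kelch-repeat gene (Solyc07g009410.4.1). EID1-like F-box protein 3 had 19.95, 23.4 and 10.6 CPM in D, against 2.05, 1.48 and 2.51 CPM in US + D, 5.73, 2.61 and 1.36 CPM in US, and 3.57, 4.37 and 4.36 CPM in C. In the DUF295 gene a single D library stood out, with 1.63, 1.71 and 5.701 CPM in D. Its level was 0.416, 0.179 and 0.344 CPM in US + D, 0.769, 0.531 and 0.571 CPM in US, and 0.981, 0.665 and 0.515 CPM in C.

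Enzymes of volatile and amino acid metabolism included the second-ranked gene. The list of acyltransferases and volatile synthesis had 2 genes among the 150, of 6 annotated. The alcohol acyl transferase Solyc08g005760.1.1, of a family that forms volatile esters, had 1.08, 2.88 and 1.27 CPM in D, against 0.0595, 0 and 0.688 CPM in US + D, 0.1397, 0.0483 and 0.0544 CPM in US, and 0.0223, 0.0655 and 0 CPM in C. Outside D it was at or under 7 counts in all but 1 library, so its log2 ratio of 3.07 rests on few reads outside D. Methionine gamma-lyase (Solyc08g083110.4.1), which splits methionine and can supply isoleucine synthesis, had 51.3, 47.4 and 32.5 CPM in D, against 20.8, 17.3 and 20.2 CPM in US + D, 30.8, 19.2 and 12.7 CPM in US, and 14.2, 19.6 and 19.01 CPM in C. 3-hydroxyisobutyryl-CoA hydrolase 1 (Solyc01g108800.4.1), an enzyme of valine breakdown, had 2.8995, 2.16 and 2.35 CPM in D, against 0.535, 0.332 and 0.138 CPM in US + D, 0.303, 0.193 and 0.462 CPM in US, and 0.401, 0.253 and 0.0505 CPM in C. This was the widest gap of the 150 genes, with the lowest D library at 4.04 times the highest other library. The 2-oxoisovalerate dehydrogenase subunit Solyc04g063350.3.1, of an earlier step of the same breakdown, had 43.8, 42.9 and 39.8 CPM in D, against 20.3, 15.8 and 10.4 CPM in US + D, 16.98, 11.2 and 7.48 CPM in US, and 7.27, 16.99 and 11.7 CPM in C. Its D libraries differed by no more than 1.0998 times.

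DNA repair and replication had 3 genes of 13 annotated. The 3-methyladenine DNA glycosylase Solyc05g010800.3.1, which removes damaged bases, had 0.501, 1.79 and 0.766 CPM in D, against 0.178, 0.332 and 0.0459 CPM in US + D, 0.0466, 0.314 and 0.299 CPM in US, and 0, 0.159 and 0.0303 CPM in C. The ATP-dependent DNA helicase Solyc03g150112.1.1 had 4.32, 4.85 and 2.803 CPM in D, against 1.75, 1.099 and 1.68 CPM in US + D, 1.54, 0.241 and 0.544 CPM in US, and 0.892, 0.768 and 1.05 CPM in C. The gene for replication protein A 70 kDa subunit B (Solyc12g042110.3.1), part of a complex that coats single-stranded DNA, had 8.14, 12.7 and 9.94 CPM in D, against 5.74, 5.01 and 3.77 CPM in US + D, 3.96, 1.81 and 2.502 CPM in US, and 1.61, 4.46 and 4.07 CPM in C. For this gene and its neighbour Solyc12g042120.3.1, annotated as a transmembrane protein, the lowest D library was 1.42 and 1.74 times the highest other library.

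The gene with the largest ratio of all, Solyc08g077900.3.1 (chromosome 8, 59913958 to 59917082), had no name in the sources used here. It had 157, 68.1 and 74.997 CPM in D, against 25.1, 6.85 and 6.48 CPM in US + D, 13.3, 0.193 and 1.904 CPM in US, and 1.65, 0.0936 and 2.58 CPM in C. Outside D it covered the range between 0.0936 and 25.1 CPM, with US + D replicate 1 the highest and C replicate 2 the lowest. Also without a name in the first ranks was Solyc11g011570.1.1, with 3.85, 2.93 and 1.89 CPM in D, against 0.386, 0 and 0.0229 CPM in US + D, 0, 0.434 and 0.626 CPM in US, and 0.156, 0 and 1.23 CPM in C. Another was Solyc07g064860.2.1, with 2.45, 2.69 and 2.2995 CPM in D, against 0.297, 0.0255 and 0.413 CPM in US + D, 1.12, 0 and 0.0544 CPM in US, and 0.0446, 0.225 and 0.242 CPM in C. Both had libraries with no count outside D. Rank 6 was CLE protein 1 (Solyc01g014100.3.1), of a family of small signal peptides, with 3.74, 1.61 and 1.03 CPM in D, against 0.327, 0.0511 and 0.115 CPM in US + D, 0.652, 0.145 and 0.0544 CPM in US, and 0.312, 0.0936 and 0.0202 CPM in C.

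The D libraries were most alike for the cytokinin-activating enzyme Solyc04g081290.3.1, a phosphoribohydrolase, with 47.6, 45.7 and 45.4 CPM in D, against 13.1, 6.72 and 7.15 CPM in US + D, 22.6, 7.31 and 11.6 CPM in US, and 10.97, 11.8 and 11.3 CPM in C. Next came Solyc04g077740.1.1, Solyc06g068390.1.1, the 2-oxoisovalerate dehydrogenase subunit and R2R3MYB transcription factor 20, all with at most 1.1 times between D libraries. The D libraries were least alike for the hypothetical protein Solyc04g076440.1.1, with 1.397, 0.871 and 3.66 CPM in D, followed by CLE protein 1, the DNA glycosylase, the DUF295 F-box gene and Solyc10g086720.2.1. For these 5 genes the highest D library was between 3.05 and 4.21 times the lowest. Beside the hydrolase of valine breakdown, the widest gaps to the other libraries belonged to a cold-regulated protein gene (Solyc02g091390.3.1; 2.91 times), the LEA gene Solyc02g085150.4.1, Solyc08g077900.3.1 (2.72 times) and the ethylene-responsive factor (2.54 times).

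At the edge of the ranking the genes differed little. The last genes taken were fructose-bisphosphate aldolase, an unnamed gene, a hypothetical protein gene (Solyc11g012520.1.1), an unknown protein gene (Solyc12g036380.1.1) and an unnamed gene, with log2 ratios between 1.14 and 1.16. The first genes left out were a Rop guanine nucleotide exchange factor (Solyc06g066650.4.1), 3 unnamed genes and pheophytinase (Solyc10g049560.3.1), with log2 ratios between 1.12 and 1.14.

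Of the 150 genes, 28 had another of the 150 within 50 kb, in 14 pairs. Beside the pairs above these were, among others, the LEA gene Solyc02g077970.4.1 with the unknown protein gene Solyc02g077980.3.1, the vicilin-like gene with ATHB-21, HOX6 with methionine gamma-lyase, and multiprotein-bridging factor 1c with a thionin-like gene (Solyc01g104710.3.1). HOX6 lies at chromosome 8, 63824763 to 63825720, and methionine gamma-lyase at chromosome 8, 63817757 to 63821265. The remaining pairs with a named gene were the self-pruning G-box protein, AFP3, the xyloglucan gene, a 2-oxoglutarate-dependent oxygenase (Solyc03g116270.3.1) and a wound-responsive gene (Solyc07g054770.1.1), each with an unnamed gene, and the CASP-like gene with a hypothetical protein gene.

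Outside D, the 150 genes were not uniformly low. US replicate 1 was the library in which they were most often raised. It was the highest of the 9 other libraries for 47 genes (31.3%, against 9.46% of the tested genes) and the highest US library for 113 genes (75.3%, against 36.8%). At least double the median of the 9 libraries was reached by 34 genes in US replicate 1 (22.7%, against 2.32% of the tested genes). The same count was 19 genes in US + D replicate 1 (12.7%, against 5.29%) and 12 genes in US + D replicate 3 (8.0%, against 1.28%). It was 18 genes in C replicate 3 (12%, against 6.77%) and 14 genes in C replicate 2 (9.33%, against 9.58%). It was between 5 and 9 genes in the remaining 4 libraries, where the tested genes were between 1.95% and 6.66%. The lowest US + D library was replicate 2 for 91 of the 150 genes, a share near the 56.1% of the tested genes. A wide split within US was seen for the oxidative stress 3 gene (Solyc06g066420.4.1), named like an Arabidopsis stress tolerance gene and mentioned here after its values were seen. It had 147, 163 and 129 CPM in D, against 25.4, 14.3 and 12.6 CPM in US + D, 109.6, 29.7 and 29.6 CPM in US, and 31.4, 27.3 and 11.6 CPM in C. US replicate 1 was close to D, and all US + D libraries were below the other US libraries.

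The median log2 level of the 150 genes relative to the mean of C was 1.71, 1.67 and 1.36 in D, 0.16, -0.63 and 0.01 in US + D, 0.52, -0.56 and -0.53 in US, and -0.14, -0.06 and 0.05 in C. The US + D and US groups each held libraries on both sides of C. The median tested gene stood at 0.01, -0.32 and -0.16 in US + D and at -0.07, -0.07 and -0.20 in US on the same scale. Within a group the highest library was a median of 2.38 times the lowest in US + D, 2.59 times in US and 2.27 times in C for the 150 genes, against 1.70, 1.57 and 1.62 times for the tested genes. After removal of the group means, the correlation between pairs of the 150 genes over the 9 libraries had a median of 0.27, and 31.0% of the pairs were above 0.5. For pairs of all tested genes the median was 0.07 and the share 23.8%. Genes of the same library share its depth and composition, so these correlations are a description only. What set US replicate 1 apart was not tested.

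**Figure D4:**
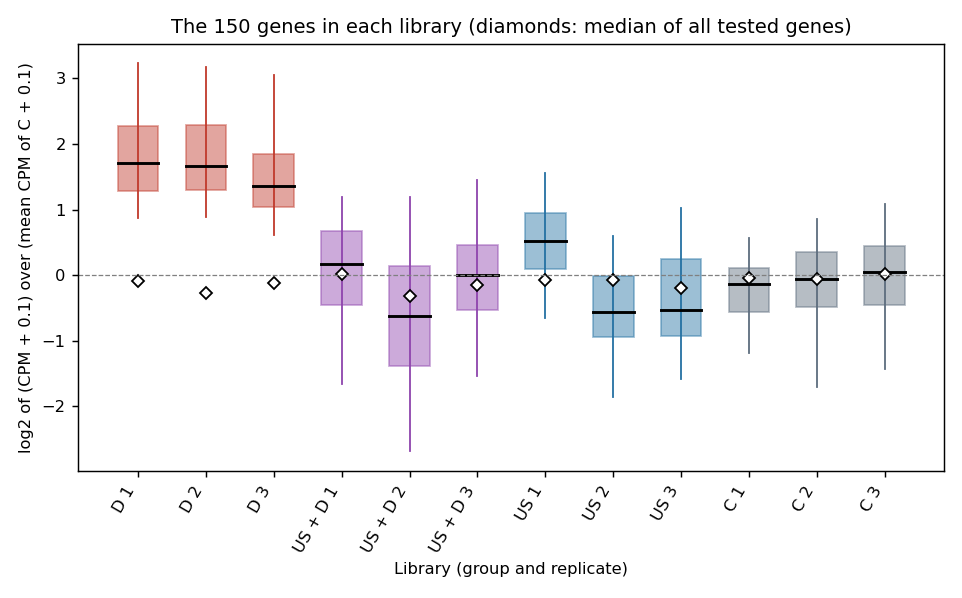
Level of the 150 genes in each library as log2 of CPM over the mean of C (0.1 CPM added to both): bar, median; box, quartiles; line, 5th to 95th percentile. White diamonds mark the median of all tested genes, which lies between -0.32 and 0.01 in every library, while the median of the 150 genes is between 1.36 and 1.71 in D, 0.52 in US replicate 1 and -0.63 in US + D replicate 2.

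The rule treated the 9 libraries of US + D, US and C alike. It did not use the contrasts among these groups, which were tested. Its ranking did divide by the mean of the 9 libraries, so a low level in US + D, US or C moved a gene up. Shares of the 150 genes in either direction are therefore not independent of the choice. The rule also held each of the 9 libraries below the lowest D library. Genes raised in US + D or US up to the D level were thus left out, and a rise was capped while a fall was not. Within these limits, US vs. C asks whether the genes also moved with ultrasound alone. US + D vs. US asks whether they moved with drought after ultrasound, and US + D vs. C compares both stimuli with none. In the edgeR quasi-likelihood fit of 22157 genes, at an adjusted p of less than 0.05 with at least 0.58 of log2 change, none of the 150 genes was called in US + D vs. C, where 0.0% of the tested genes were called higher and 0.00451% (1 gene) lower. None was called in US vs. C or in US + D vs. US either, with 0.0% of the tested genes called in each direction. At an unadjusted p under 0.05 there were 21 of the 150 genes in US + D vs. C (14.0%, background 4.88%), 13 in US vs. C (8.67%, background 3.84%) and 9 in US + D vs. US (6.0%, background 3.37%). These genes went both ways, with 10 higher and 11 lower in US + D vs. C, 8 higher and 5 lower in US vs. C, and 2 higher and 7 lower in US + D vs. US. The background per direction was 2.54% and 2.34% in US + D vs. C, 2.36% and 1.48% in US vs. C, and 1.34% and 2.03% in US + D vs. US.

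The median log2 fold change of the 150 genes was 0.06 in US + D vs. C, 0.07 in US vs. C and -0.09 in US + D vs. US, against -0.03, -0.02 and -0.00107 for all the tested genes. Both medians that involve US turned sign without US replicate 1, to -0.31 in US vs. C and 0.31 in US + D vs. US. The count at an unadjusted p under 0.05 in US + D vs. US was then 27 of the 150 genes (18.0%, against 5.26% of the tested genes), whereas it was 9 with all libraries (6.0%, against 3.37%). By library values without a model, 10 genes had all US + D libraries above C (6.67%, background 2.27%) and 12 all below C (8.0%, background 5.87%). In US vs. C these counts were 5 genes above (3.33%, background 2.5%) and 9 below (6.0%, background 3.91%). In US + D vs. US they were 2 genes above (1.33%, background 2.09%) and 8 below (5.33%, background 3.73%).

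The genes with the smallest p in US + D vs. C were all lower in US + D. MAP kinase kinase kinase 50 (Solyc07g051860.1.1), of a class of signalling kinases, had 3.32, 4.19 and 2.73 CPM in D, against 0.386, 0.536 and 0.826 CPM in US + D, 1.7, 1.47 and 0.898 CPM in US, and 2.56, 1.99 and 2.07 CPM in C. Its US + D libraries were all below US and C, with a log2 fold change of -1.79 ± 0.38 (SE) in US + D vs. C and an edgeR adjusted p of 0.386. B-box zinc finger protein 32 (Solyc12g005750.1.1), of a family with roles in light signalling, had 11.7, 16.8 and 10.3 CPM in D, against 1.37, 0.996 and 2.59 CPM in US + D, 3.38, 3.89 and 2.75 CPM in US, and 4.01, 4.36 and 8.98 CPM in C. Its US + D libraries were also all below C, with a log2 fold change of -1.70 ± 0.42 and an edgeR adjusted p of 0.4699. R2R3MYB transcription factor 20 (Solyc04g014470.3.1) had 8.01, 8.78 and 8.81 CPM in D, against 1.75, 0.971 and 2.35 CPM in US + D, 4.26, 2.32 and 0.707 CPM in US, and 6.45, 6.03 and 6.89 CPM in C. Both US and US + D libraries were below all C libraries, and the log2 fold change was -1.85 ± 0.50 in US + D vs. C with an edgeR adjusted p of 0.585. DESeq2 called these 3 genes lower in US + D vs. C, i.e., 2.01% of the 149 genes it gave a p, against 0.226% of its 27483 genes. Its adjusted p values were 0.00218, 0.0213 and 0.0383 for the kinase, B-box protein 32 and MYB 20. The ranking favoured genes that were low in US + D or US. For the kinase the edgeR log2 fold change in D vs. C was only 0.74, so its place among the 150 rested partly on those low levels. Over all the alternatives edgeR and DESeq2 adjusted p values spanned 0.00218 to 0.814 for the kinase, 0.0213 to 0.9099 for B-box protein 32 and 0.0383 to 0.949 for MYB 20. DESeq2 called none of the 150 genes higher in this contrast, where 0.313% of its genes were and where the rule had capped rises. It called none of them in US vs. C (0.207% of its genes higher and 0.0728% lower) or in US + D vs. US (0.0109% higher and 0.0291% lower).

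In US vs. C the smallest p values belonged to a two-component response regulator (Solyc06g005680.4.1), an unknown protein gene (Solyc04g072370.3.1) and the CASP-like gene. The response regulator, of a class that relays cytokinin signals, had 3.48, 2.08 and 2.97 CPM in D, against 1.397, 0.945 and 1.296 CPM in US + D, 1.47, 1.3998 and 1.22 CPM in US, and 0.959, 0.5804 and 0.818 CPM in C. The US libraries were above all C libraries, with a log2 fold change of 0.86 ± 0.29 and an edgeR adjusted p of 0.9999. For the CASP-like gene all US libraries were likewise above C (log2 fold change 0.61 ± 0.21, edgeR adjusted p 0.9999), and the unknown protein gene gave 1.14 ± 0.39 with the same adjusted p. In US + D vs. US the smallest p values belonged to RMA1H1, a cytochrome P450 gene (Solyc03g116630.3.1) and Solyc03g121090.4.1. RMA1H1 (Solyc10g008400.1.1) is named after a pepper ubiquitin ligase that acts on an aquaporin of the plasma membrane. It had 35.4, 31.4 and 38.8 CPM in D, against 6.39, 1.99 and 3.87 CPM in US + D, 25.7, 8.37 and 10.3 CPM in US, and 8.56, 12.4 and 20.6 CPM in C. The US + D libraries were below all US and C libraries, with a log2 fold change of -1.87 ± 0.47 in US + D vs. US and an edgeR adjusted p of 0.9998. The P450 gene had 132, 154 and 103 CPM in D, against 31.5, 20.8 and 28.1 CPM in US + D, 102, 37.7 and 52.4 CPM in US, and 49.4, 39.7 and 55.8 CPM in C. Its log2 fold change in US + D vs. US was -1.23 ± 0.32, and that of Solyc03g121090.4.1 was -1.12 ± 0.35, with the same edgeR adjusted p.

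Functional lists had medians on both sides of 0 in these contrasts, while no gene of any list was called by edgeR. The 10 genes of seed maturation had a median log2 fold change of 1.18 in US + D vs. C, 0.25 in US vs. C and 0.65 in US + D vs. US. In the same order, 2, 1 and 2 of them had an unadjusted edgeR p under 0.05. The 3 lipid transfer genes had a median of 1.09 in US + D vs. C. The 11 transcription factors had medians of -0.55 in US + D vs. C, -0.28 in US vs. C and -0.40 in US + D vs. US. In the same order, 4, 2 and 1 of them had an unadjusted edgeR p under 0.05. The 6 sugar and inositol genes stayed near 0, with medians of 0.10, 0.02 and 0.02 in the same order of contrasts. Over all tested genes the medians were -0.03, -0.02 and -0.00107, and 4.88%, 3.84% and 3.37% had an unadjusted p under 0.05.

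**Figure D5:**
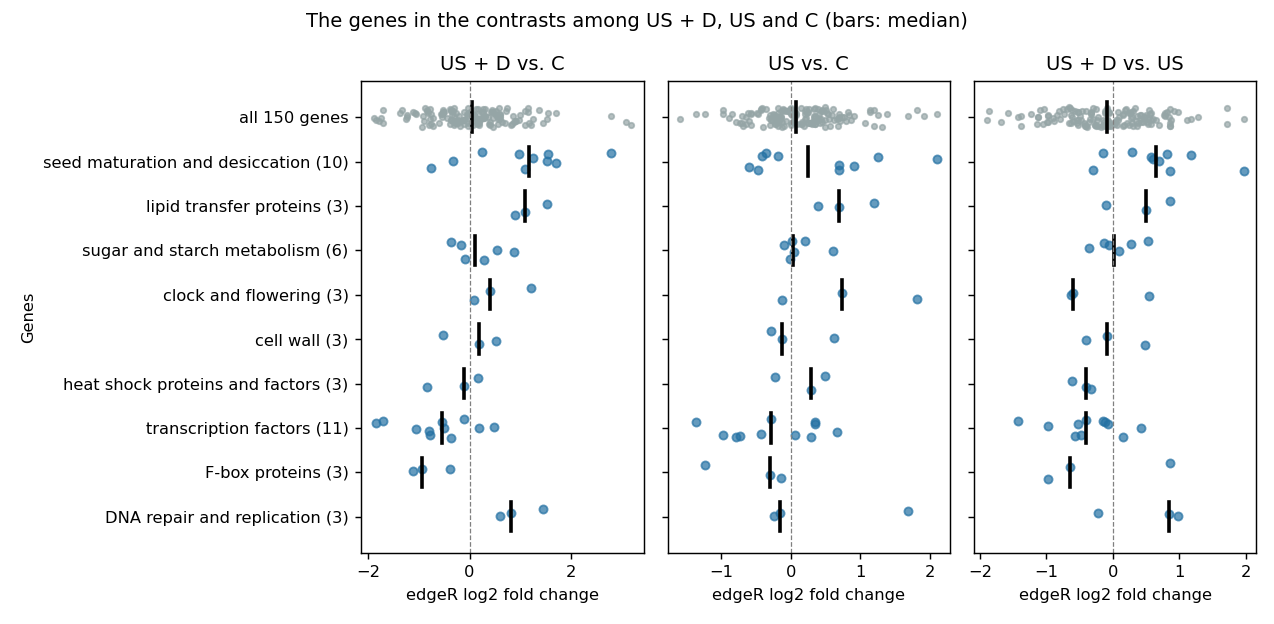
edgeR log2 fold changes of the 150 genes (top row) and of those on functional lists (number of genes in brackets) in US + D vs. C, US vs. C and US + D vs. US, 1 point a gene, bars at the median. In US + D vs. C the seed maturation genes have a median of 1.18 and the transcription factors one of -0.55, and edgeR called no gene in any panel.

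Many annotated genes of the same lists were not among the 150. On the seed maturation list these were 8 genes, of which 5 had all D libraries above all C libraries and 6 had a higher mean in D than in the other libraries, both given as a description. Over the tested genes 5.94% had all D libraries above C. The LEA gene Solyc04g078750.3.1 went the other way, with a mean of 13.2 CPM in D against 43.4 CPM in the other libraries. So did Solyc08g005960.2.1, of the family of lipid transfer proteins and 2S albumins, with 2.97 CPM against 16.4 CPM. In US + D vs. C edgeR called none of the 8, while 3 were higher and none lower at an unadjusted p under 0.05, and DESeq2 called 2 higher and none lower. Over the tested genes 2.54% were higher and 2.34% lower in this contrast at an unadjusted edgeR p under 0.05. DESeq2 called 0.313% of its genes higher and 0.226% lower. Of the 10 other annotated genes of ABA signalling, 3 had all D libraries above all C libraries. Only 5 of the 10 had a higher mean in D than in the other libraries. The ABA receptor gene PYL5 (Solyc10g085310.1.1), for example, had a mean of 3.71 CPM in D against 13.35 CPM in the other libraries. In US + D vs. C edgeR called none of these 10 genes, 3 were higher and 2 lower at an unadjusted p under 0.05, and DESeq2 called none higher and 1 lower. Both aquaporins that were not chosen had a lower mean in D than in the other libraries, and in US + D vs. C DESeq2 called 1 of them lower, while edgeR called none and 1 was lower at an unadjusted p under 0.05. None of the 7 annotated genes of senescence and chlorophyll breakdown was among the 150, although 4 met the rule at a lower rank. The names of these genes came from the study's own calls, which include calls on the same libraries, so these counts are not independent evidence of a direction.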

How the data were processed

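The authors deposited a table of raw read counts per gene, for which they cleaned the paired-end reads of mRNA libraries (fastp), mapped them with Hisat2 on tomato genome SL4.0 and assigned them by FeatureCounts to the ITAG4.0 annotation. The strand setting of the counting and how reads with several alignments were counted were not given in the sources used here. CPM were computed from the total count of a library.

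In R (4.3.3), genes were filtered with edgeR (4.0.16) filterByExpr, scaled by TMM and fitted with 1 mean per group on the 12 libraries together (quasi-likelihood test), with p-values adjusted over the 22157 tested genes by the Benjamini-Hochberg method. The SE of a log2 fold change is its size divided by the square root of F. An exact permutation test with 3 libraries per group has 0.1 as its smallest two-sided p and was not used. The fit was tested on simulated data. Alternatives were DESeq2 (1.42.0), RLE factors, total counts only, no filter, a block for the replicate number, each library left out, and, for the rule, TMM-scaled CPM, other offsets and a minimum of 5 CPM.

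The genes, the functional lists (matched on annotation text) and the rule for genes named were chosen with earlier results of these data known. Named were ranks 1 to 12, up to 5 genes of each list with at least 2 members, the genes at the edge of the ranking, the 5 highest and lowest ratios between D libraries, the 5 highest levels in D, the 5 widest gaps, the 3 smallest p per contrast, the study's own targets, neighbours within 50 kb and the genes with opposite directions below. Gene names came from the study's supplementary lists. Tables and plots were made in Python (3.11.15) with numpy (2.4.6), pandas (2.3.3) and matplotlib (3.10.9). No sequences were used here.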

Additional observations from a re-analysis of the deposited data

Results flagged for a closer look

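For 8 of the genes, the D libraries were all above the C libraries, which the rule fixed, while the US + D libraries were all below the US libraries. The difference between the directions was not tested, because the genes were selected on D. These were 5.33% of the 150 genes, near the 3.73% of all tested genes that had all US + D libraries below US. Low US + D levels also moved a gene up the ranking, so the pattern is not given as a trait of these genes. The edgeR log2 fold change in US + D vs. US was -1.87 for RMA1H1 (Solyc10g008400.1.1), -1.68 for the oxidative stress 3 gene (Solyc06g066420.4.1), -1.43 for ATHB-21 (Solyc02g085630.3.1) and -1.23 for the cytochrome P450 gene (Solyc03g116630.3.1). It was -1.14 for MAP kinase kinase kinase 50 (Solyc07g051860.1.1), -0.98 for the DUF295 F-box gene (Solyc01g106510.2.1), -0.97 for B-box zinc finger protein 32 (Solyc12g005750.1.1) and -0.52 for the serine/threonine protein kinase (Solyc05g053210.4.1).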

How the results depend on the processing

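The counts of tested genes called depended on the tool. DESeq2 called 148 genes in US + D vs. C, 77 in US vs. C and 11 in US + D vs. US, and 3 of the 150 genes in the first contrast, against 1, 0, 0 and 0 with edgeR. With 1 library left out, edgeR called between 0 and 4 genes in US + D vs. C and 0 in the other contrasts, and none of the 150 genes in any of the 3 contrasts. With RLE factors, total counts, no filter or a replicate block, edgeR called 1 gene in US + D vs. C, 0 in the other 2 contrasts and none of the 150 genes. The samples of a number were not shown to be paired, since the correlations of their deviations lay between -0.40 and 0.75 in the tested contrasts. Between D and C, which were not tested against each other, they were 0.14, 0.26 and 0.22. The median log2 fold change of the 150 genes in US + D vs. C was -0.02 with total counts and between -0.04 (without US + D replicate 3) and 0.15 (without US + D replicate 2) with a library left out. That in US vs. C lay between -0.31 and 0.27 and that in US + D vs. US between -0.22 and 0.31. The median log2 fold changes with the block were 0.06, 0.11 and -0.14 in US + D vs. C, US vs. C and US + D vs. US.

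The choice of the genes depended on the settings of the rule. Between 106 and 143 of the 150 genes stayed among the top 150 when a library was left out, 99 with a minimum of 5 CPM in D, and between 124 and 137 under the other offsets and with TMM-scaled CPM. These were 116 without C replicate 3 and 106 without D replicate 2. The number of genes that met the rule before ranking was between 498 and 853 with a library left out. It was 853 without D replicate 2 and 745 without D replicate 3. An offset of 0.5 CPM lowered the median log2 ratio to 1.41, by the construction of the ratio for genes of low level. With 3 libraries a group, differences of the size seen between US + D, US and C could mostly not be told from the spread between libraries.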
